A study of Mus musculus with 6 samples.

Results

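Transcription factors that pattern the hypothalamus and the rest of the forebrain were followed in newborn mouse retinas after conditional deletion of the LIM homeodomain factor Lhx2. The 32 genes, of 39179 gene rows in the count tables, were chosen by name with their response in this cKO to control contrast already known, so their differences between the groups are given as a description. They comprise 16 hypothalamic factors, 12 telencephalic factors and 4 factors of other or several brain regions. All 32 had a row, 31 had at least 1 read in some library, and 17 passed the filter on low counts that precedes the test.

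The study profiled whole retinal RNA at postnatal day 0.5 by RNA sequencing of TruSeq libraries. Conditional knockout mice (cKO, n = 3, numbered 1, 2 and 3) had the genotype Lhx2 lox/lox; Pdgfrα-Cre, and controls (n = 3, numbered 2, 3 and 4) were Lhx2 lox/lox mice without Cre, which the series text calls wild type, all on a mixed, primarily CD-1, background. Both groups therefore carried the floxed allele, and loss of Lhx2 in the cKO depended on where the Pdgfrα-driven Cre had been active, so retinal cells that never expressed Cre kept Lhx2. The series title places the comparison in a study of Müller glia development.

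Patterning factors are transcription factors switched on in restricted domains of the embryonic neural tube, where they set the identity that each domain's neurons will take. The eye field lies beside the future hypothalamus and telencephalon in the anterior neural plate and shares several early factors with them, Lhx2 among them. In the mouse hypothalamus Otp and Sim1 are both required for the neuroendocrine neurons of the paraventricular and supraoptic nuclei, whereas in the telencephalon Dlx genes drive GABAergic neurons and Tbr1 and Fezf2 drive glutamatergic cortical projection neurons.

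The promoters of 6 factors that were higher in cKO retinas are shown to compare windows that hold a homeodomain core motif, those of Uncx, Helt, Barhl1 and Tbr1, with windows of Otp and Sim1 that do not. They were picked with the motif search known. Each is a window of 300 bases, 250 before to 50 after the start site, read 5′ to 3′ on the gene's strand from RefSeq on GRCm38.p6: Otp at chr13:94875386-94875685 on the plus strand, Sim1 at chr10:50895401-50895700 on the plus strand, Uncx at chr5:139543648-139543947 on the plus strand, Helt at chr8:46294622-46294921 on the minus strand, Barhl1 at chr2:28916619-28916918 on the minus strand and Tbr1 at chr2:61804203-61804502 on the plus strand. Capitals mark the hexamer TAATTA, a palindrome and the core bound by many homeodomain proteins, LIM homeodomain proteins included.
Otp: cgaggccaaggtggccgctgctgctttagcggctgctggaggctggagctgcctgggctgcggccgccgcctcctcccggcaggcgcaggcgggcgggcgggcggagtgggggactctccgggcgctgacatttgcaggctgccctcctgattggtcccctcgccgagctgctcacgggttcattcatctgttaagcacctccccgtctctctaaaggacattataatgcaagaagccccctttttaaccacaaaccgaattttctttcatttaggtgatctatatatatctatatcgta
Sim1: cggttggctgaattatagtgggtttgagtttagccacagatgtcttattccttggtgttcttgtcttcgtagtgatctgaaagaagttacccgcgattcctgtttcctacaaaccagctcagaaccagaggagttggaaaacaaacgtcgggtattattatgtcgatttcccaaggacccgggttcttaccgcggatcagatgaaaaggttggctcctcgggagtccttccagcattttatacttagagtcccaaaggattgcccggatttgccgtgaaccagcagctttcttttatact
Uncx: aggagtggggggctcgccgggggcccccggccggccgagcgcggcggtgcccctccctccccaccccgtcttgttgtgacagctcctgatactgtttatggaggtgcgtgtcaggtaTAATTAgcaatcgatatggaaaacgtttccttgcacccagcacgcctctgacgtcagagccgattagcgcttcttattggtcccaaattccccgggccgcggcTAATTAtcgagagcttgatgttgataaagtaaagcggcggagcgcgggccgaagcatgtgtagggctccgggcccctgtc
Helt: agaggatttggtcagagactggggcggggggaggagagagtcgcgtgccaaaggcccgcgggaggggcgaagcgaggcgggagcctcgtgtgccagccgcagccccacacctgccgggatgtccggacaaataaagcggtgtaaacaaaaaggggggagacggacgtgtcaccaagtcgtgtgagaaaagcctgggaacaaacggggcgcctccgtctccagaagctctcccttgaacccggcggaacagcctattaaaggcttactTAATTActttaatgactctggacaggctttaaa
Barhl1: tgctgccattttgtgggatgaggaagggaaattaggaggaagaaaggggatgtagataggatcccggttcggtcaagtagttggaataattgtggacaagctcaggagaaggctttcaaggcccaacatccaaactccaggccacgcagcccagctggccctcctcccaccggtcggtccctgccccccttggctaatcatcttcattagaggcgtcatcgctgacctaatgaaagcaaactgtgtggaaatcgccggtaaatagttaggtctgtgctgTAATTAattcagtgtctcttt
Tbr1: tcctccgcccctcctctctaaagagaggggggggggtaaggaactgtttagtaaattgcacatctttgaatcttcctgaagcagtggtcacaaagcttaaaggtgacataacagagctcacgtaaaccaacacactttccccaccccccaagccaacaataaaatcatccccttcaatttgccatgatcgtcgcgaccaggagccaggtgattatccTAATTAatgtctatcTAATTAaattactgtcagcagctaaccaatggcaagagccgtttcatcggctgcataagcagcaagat
TAATTA began 133 and 30 bases before the start site of Uncx and 33 and 18 bases before that of Tbr1. It began 17 bases after the start site in Helt and 29 bases after it in Barhl1, and the Otp and Sim1 windows held none. The windows of Gsx1, Rfx4 and Dlx1, also higher in cKO retinas, and a second window of Barhl1 held none either. RefSeq windows were matched for 27 of the 32 factors (33 windows), and 5 factors held the hexamer, Emx2 being the fifth, at 36 bases after its start site. Among all 32851 mouse promoter windows of this length 1738 (5.29%) held it, and 6.12% of genes had a window that did. A match in these letters is a description and does not show binding.

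Before the values, the libraries need a word. They fell into 2 sets by the share of reads that the counting program could not assign to a single gene. The share was 3.13% to 3.20% for cKO 1, cKO 2 and control 2, called set A here, and 2.63% to 2.69% for cKO 3, control 3 and control 4, called set B. Mitochondrial genes took 1.15% to 1.79% of the reads of set A libraries but 7.14% to 9.55% of those of set B, and 63.7% of the 16691 tested genes differed between the sets. The labels do not say what separates them, and set was a term in the fits. Reads assigned to genes totalled 31483170 to 66947478 in cKO libraries and 32698665 to 43854446 in controls. By Y-linked reads the 3 cKO libraries and control 3 came from females and controls 2 and 4 from males, so within set A genotype and sex cannot be told apart. Lhx2 itself, counted over all its exons, the deleted part not being separable, stood at 252, 287 and 224 CPM (read counts divided by the size of the library and set to a common depth) in cKO 1, 2 and 3, against 398, 266 and 258 CPM in controls 2, 3 and 4. Its log2 fold change was −0.40 ± 0.10 (SE; edgeR adjusted p = 0.0338), a call lost when cKO 2, cKO 3, control 2 (−0.22) or control 3 was left out, with sex as a term (adjusted p = 0.371) and without the set term (adjusted p = 0.817).

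Of the 17 factors tested, 10 were higher in cKO retinas and 1 was lower at a Benjamini-Hochberg adjusted p of 0.05 over all genes, where 6.36% of all tested genes were higher and 5.63% lower. Those higher were the hypothalamic factors Otp, Sim1, Uncx, Gsx1 and Barhl1, the telencephalic factors Tbr1, Dlx1 and Dlx5, and Helt and Rfx4 of other regions. The factor that fell was Foxd1. The count of higher factors was 6 without cKO 3 (Otp, Sim1, Uncx, Tbr1, Helt and Rfx4). With sex as a term it was the same 6, and without the set term it was 3 (Otp, Uncx and Helt). No factor was lower without control 2, with sex as a term or without the set term. Counted without the filter, 14 of the 32 factors had every cKO library above every control library, against 7.34% of all genes with any read: these were the 10 above with Lmx1b, Fezf2, Dlx6 and Irx3. Because the response to genotype chose the genes, neither count is evidence that the group stands apart.

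**Figure D1:**
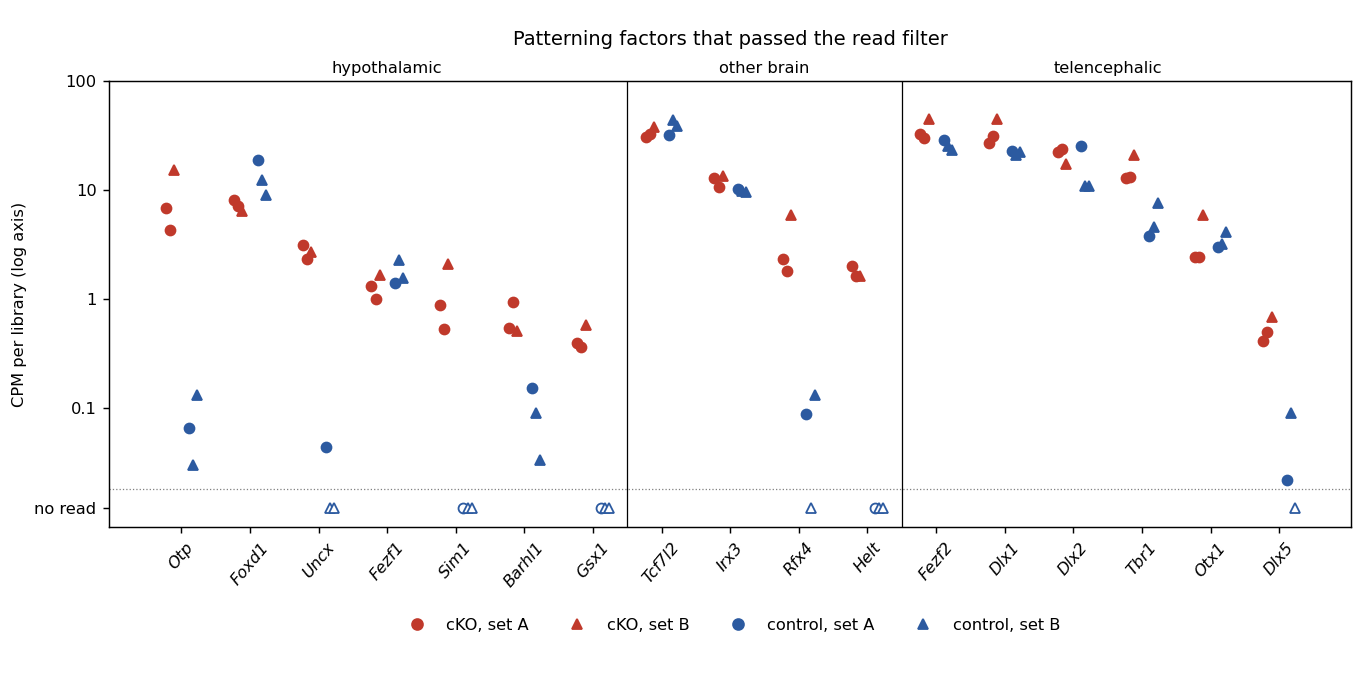
Level of each of the 17 tested factors in every library, in CPM on a log axis, with libraries without a read drawn as open symbols on a separate line; circles are set A and triangles set B, cKO libraries stand to the left of controls. Otp, Uncx, Sim1, Gsx1, Rfx4, Helt and Dlx5 had control values at or near no read, whereas Tbr1, Dlx1, Dlx2, Fezf2, Tcf7l2, Irx3 and Foxd1 were expressed in both groups.

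Otp and Sim1, the hypothalamic neuroendocrine regulators, were nearly confined to cKO retinas among these libraries. Otp, a homeodomain gene of 2881 exonic bases (chromosome 13, 94875602 to 94885130, plus strand), had 380, 312 and 452 reads in cKO 1, 2 and 3, against 3, 1 and 4 reads in controls 2, 3 and 4. In CPM this was 6.78, 4.31 and 15.4 in the cKO libraries and 0.0655, 0.0299 and 0.132 in the controls. All cKO libraries lay far above all controls, with cKO 3 the highest. The log2 fold change was 7.15 ± 0.42 (SE, n = 3 each; edgeR adjusted p = 2.83e-05), and it was 6.34 within set A and 7.56 within set B.

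Sim1, a basic helix-loop-helix PAS factor needed for the same neurons (chromosome 10, 50894754 to 50989152, plus strand), had 49, 38 and 61 reads in the cKO libraries and 0 reads in each control. Its CPM values were 0.874, 0.525 and 2.08 in cKO 1, 2 and 3, so here too cKO 3 was the highest. Set against a floor of 3 reads over the whole control group, Sim1 was at least 34.2-fold higher in cKO retinas (edgeR adjusted p = 0.00241). Sim2, its close relative, had 7, 2 and 4 reads in cKO libraries and 1, 2 and 0 reads in controls, a ratio of 3.01 with a 95% exact interval of 0.826 to 16.4, and the groups overlapped. This interval, like the others given for ratios of reads, covers counting error only.

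Uncx, a paired-type homeodomain factor (chromosome 5, 139543494 to 139548179, plus strand), had 175, 170 and 80 reads in cKO 1, 2 and 3, against 2, 0 and 0 reads in controls 2, 3 and 4. In CPM its cKO values were 3.12, 2.35 and 2.72, a narrower spread than that of Otp. Its reads were 147-fold higher in cKO retinas (95% exact interval 40.5 to 1221; edgeR adjusted p = 0.000313). Gsx1, a homeobox gene needed for growth hormone-releasing hormone neurons of the mouse arcuate nucleus, had 22, 26 and 17 reads in the cKO libraries and none in the controls. Gsx1 was at least 15.0-fold higher than the floor of 3 control reads (edgeR adjusted p = 0.00721), a call lost without cKO 3 (adjusted p = 0.0747). It was also lost with sex as a term (edgeR adjusted p = 0.0866) and without the set term (0.141).

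Barhl1, a homeodomain factor of the mammillary region that also serves the midbrain and cerebellum, had 30, 68 and 15 reads in cKO 1, 2 and 3, against 7, 3 and 1 reads in controls 2, 3 and 4. Scaled to depth, it stood at 0.535, 0.939 and 0.510 CPM in cKO libraries and at 0.153, 0.0897 and 0.0331 CPM in controls, with no overlap. The log2 fold change was 2.55 ± 0.54 (SE, n = 3 each; edgeR adjusted p = 0.0175), and the call was lost without cKO 2, without cKO 3 or without control 2 (adjusted p 0.0650, 0.162 and 0.0955). Adding sex as a term (edgeR adjusted p = 0.289) or dropping the set term (0.261) lost it too.

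Foxd1 and Fezf1 behaved otherwise. Foxd1, a forkhead factor of the ventral diencephalon that also marks temporal retina, stood at 8.17, 7.14 and 6.36 CPM in cKO 1, 2 and 3, against 18.8, 12.3 and 8.97 CPM in controls 2, 3 and 4. Every cKO library was below every control library, the highest control being control 2, the control of set A. The log2 fold change was −1.04 ± 0.18 (SE; edgeR adjusted p = 0.00839), but without control 2 it was −0.74 with an adjusted p of 0.159. The call was also lost with sex as a term (edgeR adjusted p = 0.0958) and without the set term (0.529). Fezf1, a zinc finger factor needed for the ventromedial hypothalamus, had 1.32, 1.01 and 1.67 CPM in cKO libraries and 1.40, 2.27 and 1.56 CPM in controls. These values overlapped, and the log2 fold change was −0.24 ± 0.29 (edgeR adjusted p = 0.665).

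The other 9 hypothalamic factors did not pass the filter. Lmx1b, a LIM homeodomain factor of the posterior hypothalamus and midbrain, had 3, 10 and 7 reads in cKO 1, 2 and 3 and 2, 1 and 0 reads in controls 2, 3 and 4, a ratio of 4.62 (95% exact interval 1.37 to 24.3). Nkx2-1, the defining factor of the ventral hypothalamus and of the medial ganglionic eminence, had 2 reads in cKO 2 and none in any other library. Foxb1, a forkhead factor of the mammillary body, had no read anywhere. Nkx2-2, Nkx2-4, Dbx1, Hmx2 and Hmx3, homeodomain factors of ventral or lateral hypothalamic progenitors and neurons, had at most 5 reads in any library of either group. At this depth no difference between the groups was detectable for these 7 genes.

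**Figure D2:**
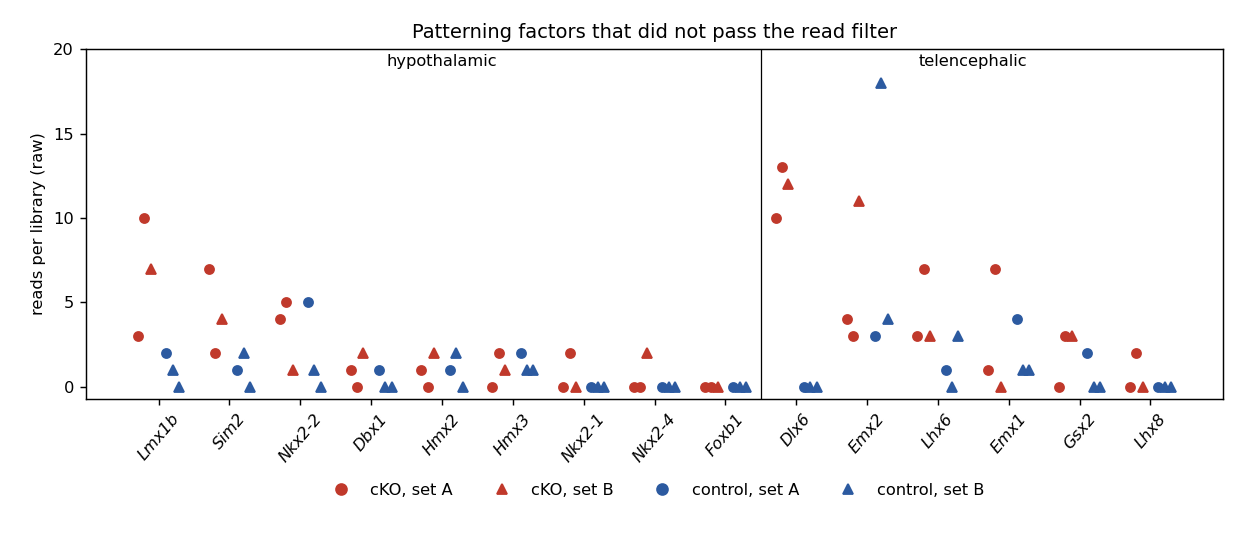
Raw reads per library of the 15 factors that did not pass the filter on low counts, hypothalamic factors left and telencephalic factors right; cKO libraries stand to the left of controls, circles are set A and triangles set B. Dlx6 and Lmx1b had every cKO library above every control, whereas Emx2 had its highest value, 18 reads, in a control.

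Among the telencephalic factors, Tbr1 differed by the same amount in both library sets. This T-box factor of cortical glutamatergic neurons, which is also used by a subset of mouse retinal ganglion cells (chromosome 2, 61802930 to 61814114, plus strand), stood at 12.8, 13.2 and 21.0 CPM in cKO 1, 2 and 3, against 3.76, 4.58 and 7.65 CPM in controls 2, 3 and 4. The groups did not overlap, and cKO 3 and control 4, both of set B, were the highest of their groups. The log2 fold change was 1.79 ± 0.19 (SE, n = 3 each; edgeR adjusted p = 0.00118), with 1.79 in both sets.

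The Dlx genes, homeodomain factors of the ganglionic eminences, lie in pairs, Dlx1 and Dlx2 being 9426 bases apart on chromosome 2 and Dlx5 and Dlx6 being 9236 bases apart on chromosome 6. Dlx1 stood at 27.1, 31.2 and 44.7 CPM in the cKO libraries, against 22.9, 20.8 and 22.5 CPM in the controls. All cKO values were above all controls, most of all in cKO 3. Its log2 fold change was 0.69 ± 0.15 (SE; edgeR adjusted p = 0.0208), at 0.35 within set A and 1.05 within set B, and the call was lost without cKO 3 (0.37, adjusted p = 0.30), without control 3 (adjusted p = 0.0676) and without control 4 (adjusted p = 0.0568). The Dlx1 call was also lost with sex as a term (edgeR adjusted p = 0.112) and without the set term (0.553). Dlx2 stood at 22.6, 23.6 and 17.2 CPM in cKO libraries and at 25.4, 11.0 and 10.9 CPM in controls. These overlapped, control 2 being the highest of the 6 libraries, and the log2 fold change was 0.24 ± 0.16 (edgeR adjusted p = 0.406) and −0.11 without cKO 3.

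Dlx5 and Dlx6 were near silent in control retinas. Dlx5 had 23, 36 and 20 reads in cKO 1, 2 and 3, against 1, 3 and 0 reads in controls 2, 3 and 4. The log2 fold change of Dlx5 was 3.93 ± 0.70 (SE, edgeR adjusted p = 0.00964), a call lost without cKO 3 (adjusted p = 0.117) or without control 2 (adjusted p = 0.0632). Sex as a term (edgeR adjusted p = 0.165) and a fit without the set term (0.261) lost the Dlx5 call too. Dlx6 had 10, 13 and 12 reads in the cKO libraries and none in the controls, at least 8.09-fold higher than the floor of 3 control reads, and it did not pass the filter. The long noncoding transcript Dlx6os1 of the same locus, looked up after the values of Dlx5 and Dlx6 were seen, had 47, 110 and 83 reads in cKO libraries and 1, 0 and 0 reads in controls, a ratio of 166 (95% exact interval 29.6 to 6600; edgeR adjusted p = 0.000782).

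The remaining telencephalic factors did not pass the test or the filter. Fezf2, a zinc finger factor of subcerebral projection neurons, stood at 32.7, 30.3 and 45.0 CPM in cKO 1, 2 and 3, against 29.1, 25.6 and 23.2 CPM in controls 2, 3 and 4. The groups did not overlap, but the log2 fold change of 0.49 ± 0.16 did not pass the test (edgeR adjusted p = 0.0744), with 0.88 and adjusted p = 0.0116 without control 2 but 0.14 and adjusted p = 0.702 without cKO 3. Otx1, a homeodomain factor of the cerebral cortex, overlapped between the groups at 2.41, 2.40 and 5.92 CPM in cKO libraries and 3.01, 3.17 and 4.14 CPM in controls (log2 fold change 0.19 ± 0.26, edgeR adjusted p = 0.708, and −0.30 without cKO 3). The cortical progenitor factors Emx1 and Emx2, the ganglionic eminence factors Gsx2 and Lhx6, and Lhx8 of basal forebrain cholinergic neurons had at most 18 reads in any library. Emx2 was highest in control 3, with 18 reads, and Lhx8 had 2 reads in cKO 2 only.

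Rfx4 and Helt, of the 4 factors of other brain regions, were close to absent in control retinas. Rfx4, a winged-helix factor of the dorsal midline and suprachiasmatic nucleus (chromosome 10, 84756062 to 84906538, plus strand), had 131, 132 and 173 reads in cKO 1, 2 and 3, against 4, 0 and 4 reads in controls 2, 3 and 4. The log2 fold change of Rfx4 was 5.68 ± 0.58 (SE; edgeR adjusted p = 0.00089). Helt, a basic helix-loop-helix factor of GABAergic neurons in the mouse midbrain, had 113, 117 and 48 reads in cKO libraries and none in controls, at least 64.3-fold higher than the floor (edgeR adjusted p = 0.00118). Neither gene's groups overlapped.

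Tcf7l2 and Irx3 were expressed in both groups. Tcf7l2, the Wnt pathway effector that marks the thalamus, stood at 30.7, 32.9 and 37.6 CPM in cKO libraries and at 31.8, 44.2 and 38.7 CPM in controls, with overlap (log2 fold change −0.07 ± 0.10, edgeR adjusted p = 0.709, and 0.03 without cKO 3). Irx3, an Iroquois homeodomain factor of the caudal forebrain, stood at 12.8, 10.6 and 13.5 CPM in cKO libraries, just above the 10.3, 9.90 and 9.53 CPM of controls (log2 fold change 0.33 ± 0.14, edgeR adjusted p = 0.171).

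**Figure D3:**
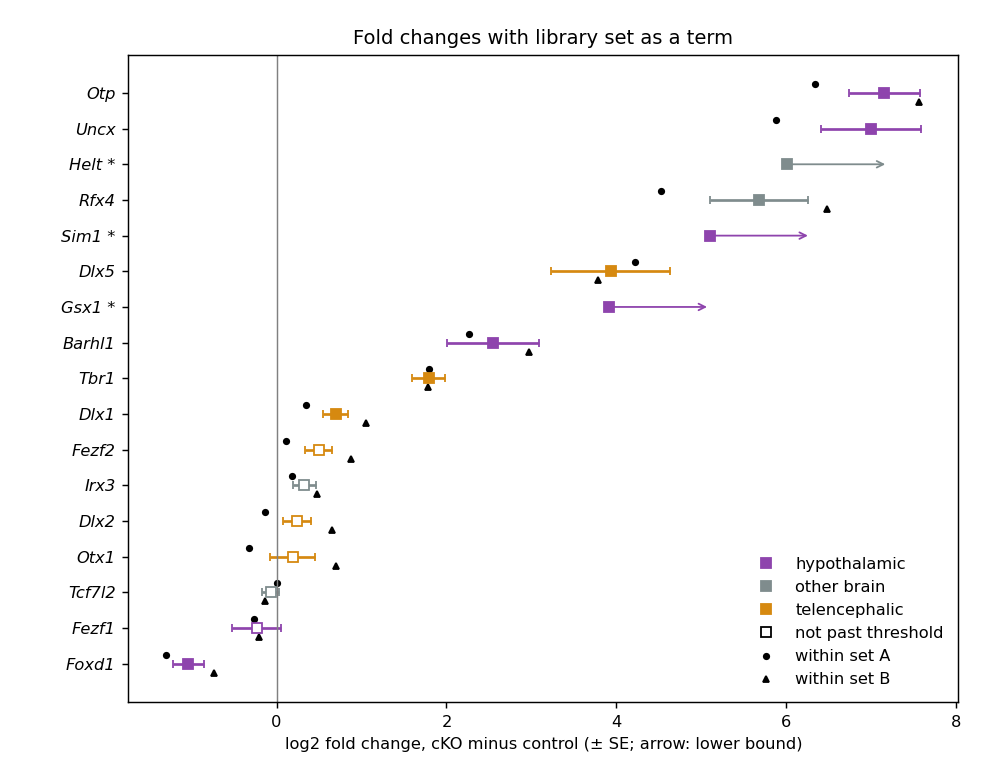
Log2 fold change, cKO minus control, of the 17 tested factors with library set as a term; bars are ± 1 SE, filled squares passed an adjusted p of 0.05, and small circles and triangles are the values within set A and set B. Asterisks mark Helt, Sim1 and Gsx1, which had no control read and are drawn as lower bounds with an arrow. Hypothalamic factors run from Foxd1 at −1.04 to Otp at 7.15.

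The hypothalamic and telencephalic factors were set side by side. Of 16 hypothalamic factors 7 were tested, of which 5 were higher, 1 was lower and 1 did not pass. Of 12 telencephalic factors 6 were tested, of which 3 were higher and 3 did not pass. Over all tested genes 6.36% were higher and 5.63% lower. None of the telencephalic factors was lower by edgeR, DESeq2 or limma-voom, and none at edgeR's unadjusted p of 0.05. Over all factors with any read, without the filter and with a prior count of 2, the median log2 difference was 0.67 for 15 hypothalamic factors (−1.01 to 6.35) and 0.55 for 12 telencephalic factors (−0.63 to 3.06), against 0.03 for all 25408 genes with any read. Of the 16 hypothalamic factors, 9 had at most 10 reads in every library. The hypothalamic median fell on such an untested factor, so its size depends on the prior count and does not measure a shift of the class. Placing genes that lack control reads at their lower bounds could not move either median. These log2 bounds, 5.10 for Sim1, 3.91 for Gsx1 and 3.02 for Dlx6, lie above both medians. The difference between the medians, 0.67 and 0.55, was smaller than the residual spread of the library medians (SD 0.53 and 0.34). The order of the medians was not stable. The hypothalamic median was the higher without cKO 3 (0.37, against 0.25 for telencephalic factors), without control 2 (1.32 against 0.87) and at a prior count of 0.5 (1.41 against 0.60). It was the lower with a replicate block in place of the set (0.46 against 0.61), with genotype alone (0.44 against 0.54) and at a prior count of 5 (0.34 against 0.41). The replicate block rests on cKO 2, cKO 3, control 2 and control 3 only, since cKO 1 and control 4 are each alone in a block. Every cKO library was above every control for 6 of the 16 hypothalamic and 5 of the 12 telencephalic factors. This held for 7.34% of all genes with any read.

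Per kilobase of exon, the levels that were reached differed widely. In RPKM (CPM divided by exon length in kilobases) the highest factors of cKO retinas were Fezf2 (mean 11.8 in cKO, 8.52 in controls), Dlx2 (7.39 in cKO, 5.52 in controls) and Dlx1 (6.36 in cKO, 4.09 in controls), all of which control retinas also expressed. Otp, at a mean of 3.06 RPKM in cKO retinas and 0.0264 RPKM in controls, came close to the level of Tbr1, at 2.86 RPKM in cKO retinas and 0.971 RPKM in controls. Helt (0.872 in cKO, 0 in controls), Uncx (0.871 in cKO, 0.00464 in controls) and Rfx4 (0.709 in cKO, 0.0155 in controls) lay below it, and Sim1 was lower, at 0.134 RPKM in cKO retinas and 0 in controls. The means of Otp, Rfx4 and Sim1 were raised by cKO 3: over cKO 1 and 2 they were 1.92, 0.440 and 0.0811 RPKM, against 2.37 for Tbr1, 0.903 for Helt and 0.872 for Uncx. In bulk RNA a larger number of cells expressing a gene and more RNA per cell cannot be told apart.

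The factors did not vary alike among the 3 cKO retinas. Otp in cKO 3 was 2.77 times its mean over cKO 1 and 2 in CPM, and the same ratio was 2.97 for Sim1, 2.83 for Rfx4 and 2.46 for Otx1. It was 0.995 for Uncx, 0.899 for Helt and 0.692 for Barhl1. Most of these factors were therefore higher in cKO 3, Otp, Sim1, Rfx4 and Otx1 the most, and Uncx and Helt were about even. Being the only cKO library of set B, cKO 3 cannot be told apart from its set.

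Ratios of reads within a library, compared after the values were seen, do not depend on scaling between libraries. Sim1 had 0.129, 0.122 and 0.135 reads per Otp read in cKO 1, 2 and 3, and Rfx4 had 0.345, 0.423 and 0.383, and the intervals of the 3 libraries overlapped for each. They also overlapped for Gsx1 (0.0579, 0.0833 and 0.0376) and Dlx6 (0.0263, 0.0417 and 0.0266), which had at most 26 reads in any library. Uncx had 0.461, 0.545 and 0.177 reads per Otp read, and in cKO 3 its 95% exact interval, 0.138 to 0.225, lay below those of cKO 1 and 2. Helt followed Uncx, with 0.646, 0.688 and 0.600 reads per Uncx read in the 3 libraries. Barhl1 was uneven, at 0.0790, 0.218 and 0.0332 reads per Otp read.

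**Figure D4:**
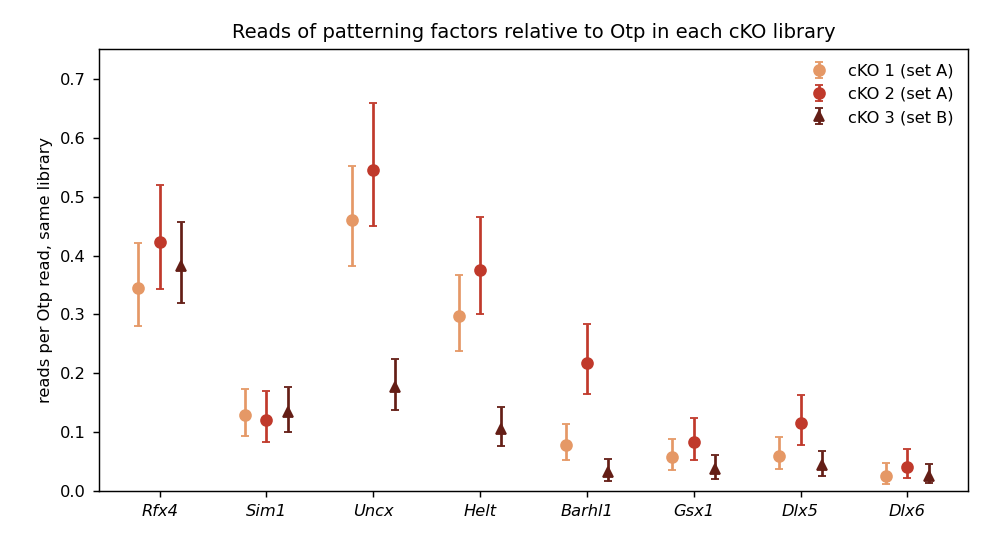
Reads of 8 factors per Otp read within each cKO library, with 95% exact intervals for counting error; circles are set A and triangles set B. Rfx4, Sim1, Gsx1 and Dlx6 gave overlapping intervals in all 3 libraries, Gsx1 and Dlx6 from few reads, whereas Uncx and Helt were lower per Otp read in cKO 3.

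The contrast of the library sets, which played no part in choosing the genes, was past the threshold for 7 of the 17 tested factors, against 63.7% of all tested genes, and for 2 without cKO 3. Dlx2 (log2 difference, set A minus set B, 0.82, edgeR adjusted p = 0.00197) and Foxd1 (0.56, adjusted p = 0.0223) were higher in set A. Otp (−1.37, adjusted p = 0.00619), Sim1 (−1.56, adjusted p = 0.0355), Tbr1 (−0.70, adjusted p = 0.0104), Otx1 (−0.80, adjusted p = 0.0242) and Tcf7l2 (−0.31, adjusted p = 0.0195) were higher in set B. For Otp and Sim1 this contrast rests almost wholly on the cKO libraries, since controls had at most 4 reads of either. Whether the difference between genotypes differed between sets could hardly be tested, since set A held a single control and set B a single cKO library. No factor passed the edgeR interaction test, which 0.024% of all genes did, and the smallest adjusted p among the factors was 0.850. At an unadjusted p of 0.05 the interaction was past the threshold for 4 of the 17 factors, Fezf2, Dlx2, Dlx1 and Otx1, against 4.22% of all genes, each with the larger log2 fold change in set B. This does not show that the sets agreed, and for Rfx4 the log2 fold change was 4.53 within set A and 6.48 within set B.

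Other genes with roles in the same regions, from lists that were likewise drawn up with results of these data known, moved in both directions. Of 40 other hypothalamic and diencephalic factors 30 were tested, of which 6 rose and 5 fell (2 rose without cKO 3, and 3 fell without control 2). The shares over all tested genes were 6.36% higher and 5.63% lower. Lhx5, a LIM homeodomain factor of the diencephalon, rose to a mean of 5.69 CPM in cKO retinas, against 1.18 CPM in controls (log2 fold change 2.39 ± 0.24, edgeR adjusted p = 0.000783). Irx2 and Nhlh2 rose by log2 fold changes of 0.90 and 0.57 (adjusted p = 0.00696 and 0.00465), and control retinas already expressed both, at means of 13.1 and 95.02 CPM. Irx2 is also a ganglion cell marker, as is Ebf3 among the telencephalic factors, and the ganglion cell markers were higher for 13 of 14, which moved with these genes and whose part was not tested. Those that fell, Tbx2 (−0.85), Tbx3 (−0.75), Rax (−0.75), Irx5 (−0.68) and Six6 (−0.67), had adjusted p of 0.00118 to 0.00591. Control retinas expressed all 5, at means of 297, 89.3, 116, 101 and 241 CPM in that order. Which cells account for the fall was not tested. Rax and Six6 define the eye field and are shared with the hypothalamus.

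Of 37 other telencephalic factors 35 were tested, of which 14 rose and 2 fell (5 rose without cKO 3, and 1 fell without it or without control 2). Among all tested genes 6.36% were higher and 5.63% lower. The factors Neurod6 (log2 fold change 2.54), Dmrta2 (2.21), Neurod2 (1.46), Ebf3 (1.13), Sox6 (0.93) and Ebf1 (0.85) rose, with edgeR adjusted p of 0.000382 to 0.00920.

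Markers of other tissues were measured beside these factors, and their part in the results was not tested. The shares to set beside the counts from all 6 libraries are 6.36% of all tested genes higher and 5.63% lower. They do not apply to the counts with a library left out or with sex as a term. All 18 retina markers were detected in both groups, with summed levels of 3189 to 4722 CPM in cKO libraries and 4033 to 5256 CPM in controls, 3 of them higher and 7 lower in cKO retinas. Ganglion cell markers were higher for 13 of 14 (sums 3037 to 3949 CPM in cKO, 2051 to 2396 CPM in controls), lens markers for 13 of 14 tested (1171 to 2465 CPM in cKO, 121 to 234 CPM in controls) and microglia markers for 7 of 8 (61.2 to 84.2 CPM in cKO, 21.8 to 38.5 CPM in controls). Of 9 endothelium and pericyte markers 7 were higher and 1 was lower, with sums of 296 to 584 CPM in cKO libraries and 546 to 721 CPM in controls. Of 14 tested cortical and ganglionic eminence neuron markers 5 were higher (sums 526 to 601 CPM in cKO, 432 to 542 CPM in controls). Leaving out cKO 3 reduced these counts of higher markers to 4 for ganglion cells, 3 for microglia, 1 for endothelium and pericytes, 1 for cortical neurons and 1 for retina, while lens stayed at 13. Without control 3 there were 8 ganglion cell markers higher, and without control 2 there were 3 cortical ones. Retina markers lower were 4 without cKO 3 or without any single control. With sex as a term the counts of higher markers were 2 for ganglion cells, 1 for microglia and 13 for lens. Fewer moved among amacrine and horizontal cell markers (2 higher and 1 lower of 14; 941 to 1388 CPM in cKO, 877 to 1463 CPM in controls), choroid plexus and ependyma markers (2 higher and 1 lower of 10; 320 to 379 CPM in cKO, 380 to 574 CPM in controls), ciliary margin markers (2 higher of 11; 369 to 822 CPM in cKO, 348 to 615 CPM in controls), optic stalk and optic nerve astrocyte markers (1 higher of 11; 461 to 686 CPM in cKO, 399 to 620 CPM in controls) and pigment epithelium markers (none of 8 by edgeR, DESeq2 or limma-voom, 1 higher at an unadjusted p of 0.05; 111 to 220 CPM in cKO, 110 to 138 CPM in controls). With 1 library left out the counts of higher markers in these lists, in the same order, ran from 1 to 3, 1 to 4, 0 to 4, 0 to 2 and 0 to 3.

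Peptide genes of the neuroendocrine neurons that need Otp and Sim1 were not alike. Avp, the vasopressin gene of those neurons, had 10, 4 and 0 reads in cKO 1, 2 and 3 and none in controls. Oxt, the oxytocin gene, had 1, 4 and 1 reads in cKO libraries and 2, 1 and 0 reads in controls, and Crh, encoding corticotropin-releasing hormone, had 1, 3 and 5 reads in cKO libraries and 2, 3 and 1 reads in controls. Trh, encoding thyrotropin-releasing hormone, had 23, 14 and 1 reads in cKO 1, 2 and 3 and 1, 0 and 0 reads in controls 2, 3 and 4. Sst, encoding somatostatin, is made by such neurons and also by cortical interneurons and was counted among the cortical markers. It had 225, 222 and 231 reads in cKO 1, 2 and 3 and 16, 6 and 8 reads in controls 2, 3 and 4 (log2 fold change 4.26 ± 0.40, edgeR adjusted p = 0.00057). Control retinas thus had reads of Sst too, and which retinal or other cells made it was not tested. In cKO 3, the library highest in Otp and Sim1, Sst and Crh were at their highest CPM, at 7.86 and 0.17, whereas Avp had no read and Trh had 1. Of the 10 tested neuropeptide genes and receptors Cartpt and Cbln1 were higher and none was lower by edgeR, DESeq2 or limma-voom or at edgeR's unadjusted p of 0.05, with summed levels of 32.6 to 40.0 CPM in cKO libraries and 13.7 to 19.5 CPM in controls. By edgeR 6.36% of all tested genes were higher and 5.63% lower.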

How the data were processed

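Read counts per gene were the values the authors deposited, 1 table per retina library (n = 3 per group; the series text gives 3 mice per group). Reads were processed with STAR, HTSeq and edgeR on GRCm38, per the submitters' processing notes; no source used here gives versions or the strand setting. The exons of Dlx1, Dlx6, Nkx2-2, Emx2, Foxb1 and Irx3 overlap those of a gene on the opposite strand by 104 to 418 bases. With the strand unknown, reads in these shared bases cannot be assigned to 1 of the genes. The opposite-strand genes of Dlx6, Nkx2-2 and Foxb1 had no read in their own rows, and that of Emx2 had 2. Those of Dlx1 and Irx3 had 200 and 122 reads in cKO libraries and 139 and 72 in controls. Lhx6 shares exon bases with a gene on its own strand. The 5 rows that name no gene (26.41% to 28.76% of counts) were left out. Symbols, coordinates and exon lengths came from GENCODE on GRCm38, which matched 37693 of 39179 identifiers (96.21%).

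The 16691 genes passing filterByExpr were fitted with edgeR 4.0.16 (R 4.3.3; TMM scaling, quasi-likelihood test, genotype plus library set, Benjamini-Hochberg adjustment over all tested genes, threshold 0.05). Set A held libraries with more than 2.9% ambiguous reads. CPM used TMM-scaled library sizes and log2 CPM a prior count of 2. A fold against 0 control reads was taken from pooled, scaled reads against 3 reads over the control group, and other ratios of few reads have exact 95% intervals. DESeq2 1.42.0 and limma-voom (limma 3.58.1) were alternatives, and the edgeR script was tested on simulated data. The factors, gene lists and library set term were chosen with earlier results of these data known. Named genes were all 32 factors, Lhx2, and the 8 genes with the smallest adjusted p of each list of other factors, of which 2 are not reported here; Dlx6os1 and the neuropeptides named singly were chosen after their values were seen.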

Additional observations from a re-analysis of the deposited data

How the results depend on the processing

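Otp and Uncx kept direction and call in all 17 alternatives and Helt in all 16 that gave a value. The count of 10 factors higher stayed between 10 and 12 under other scalings, no filter, an adjusted p of 0.1, DESeq2 and limma-voom, was 8 at an adjusted p of 0.01 and 5 at a mean CPM of at least 1, where fewer genes are tested. It was 3 (Otp, Uncx and Helt) with genotype alone, 6 once sex was added, and ranged from 6 (without cKO 3) to 10 with 1 library left out. The count of 1 lower was 0 with genotype alone or sex added, and 0 to 1 with 1 library left out. Otherwise the cause was not tested. For all genes, 1062 higher became 379 at an adjusted p of 0.01, 36 with genotype alone, 173 with sex and 176 to 1371 with 1 library left out; 939 lower became 1592 without the filter, 1425 at 0.1, 281 at 0.01, 1672 with DESeq2, 0 with genotype alone (461 at an unadjusted p of 0.05), 63 with sex and 134 to 1336 with 1 library left out. The other hypothalamic factors, 6 higher and 5 lower, became 0 and 0 with genotype alone, 1 and 0 with sex, and 2 to 7 and 3 to 5 with 1 library left out. The other telencephalic factors, 14 higher and 2 lower, became 8 and 1 at 0.01, 1 and 0 with genotype alone, 3 and 1 with sex, and 5 to 15 and 1 to 3 with 1 library left out. Factors differing between sets, 7, became 4 without scaling, 2 at 0.01 and 2 to 8 with 1 library left out. The hypothalamic median of 0.67 became 1.41 at a prior count of 0.5, 3.51 over factors passing the filter, and 0.37 to 1.32 with 1 library left out. With 1 library left out the log2 fold changes ranged from −0.109 to 0.650 for Dlx2, from −0.298 to 0.697 for Otx1 and from −0.142 to 0.028 for Tcf7l2, their signs turning without cKO 3.

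Replicate numbers 2 and 3 occur in both groups, and deviations correlated within them (r = 0.77 and 0.67), but both pairs coincide with the library sets and the labels do not say what a number marks. A replicate block in place of the set gave 10 factors higher and 1 lower, and 1007 and 1033 genes. In that fit cKO 1 and control 4, each alone in its block, add nothing to the genotype estimate. It thus rests on cKO 2 and 3 and controls 2 and 3, and does not stand for all libraries. The filter left out 15 factors with few reads. Without it Dlx6 alone of these was called, higher in cKO retinas (edgeR adjusted p = 0.0004). The p-values of that fit are not comparable with those of the main fit. In it the edgeR adjusted p of Otp was 5.46e-91, against 2.83e-05, and that of Fezf2 was 0.00127, against 0.0744.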
